A study of Mus musculus with 89 samples.

Results

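The genes described here are 42 components of the synapse, chosen by name and sorted by role into synaptic vesicle proteins, the vesicle fusion machinery, the active zone, trans-synaptic adhesion molecules, postsynaptic scaffolds and kinases, glutamate receptors and GABA-A receptors. A member was taken as the probe set whose single gene symbol was the member's name. Of the 42 genes, 41 had 1 probe set each among the 22206 probe sets of the array, and the remaining member, Grin1, the obligatory subunit of NMDA receptors, was not analysed here. The rule used gene names and no measured value. All 42 genes were found in the reference gene table, which placed 5 of them (Syn1, Syp, Nlgn3, Gria3 and Gabra3) on the X chromosome. Grin2a was the only member on chromosome 16, outside the triplicated segment, and 0 members lay on chromosome 17, so no member is itself among the triplicated genes.

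Gene expression in forebrain was profiled at embryonic day 18.5 in 89 mouse embryos, each on a Clariom S high throughput array of its own. Ts65Dn is a mouse model of Down syndrome with a small extra chromosome made of a distal part of mouse chromosome 16 and a proximal part of mouse chromosome 17. The genes of the chromosome 17 part are not orthologues of human chromosome 21, and Ts66Yah is a line that descends from Ts65Dn and no longer carries that part. The 4 groups were 23 Ts65Dn embryos with 18 euploid embryos of the same colony (EupTs65Dn), and 24 Ts66Yah embryos with 24 euploid embryos of that colony (EupTs66Yah). All came from untreated mice of mixed B6 and C3H background, both sexes were used in every group, and each colony gave 6 litters, named by their dam. In the Ts65Dn colony the extra chromosome passed through the mother alone, so that all embryos of that colony, euploid ones too, developed in a trisomic dam. The Ts66Yah colony was expanded by in vitro fertilization with the sperm of 4 males. By its title, the series asks what the chromosome 17 part contributes to Ts65Dn; for the synaptic genes this becomes the change in each model and the difference between the changes.

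A synapse joins a presynaptic terminal, where vesicles filled with transmitter dock at the active zone and fuse through SNARE proteins, to a postsynaptic membrane where scaffolds hold receptors in place. Neurexins on the presynaptic side bind neuroligins on the postsynaptic side and align both. In the mouse forebrain most synapses form after birth, but the genes of the machinery are transcribed in young neurons before then, and many of these transcripts increase as the neurons mature.

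The values are log2 signals, and the colonies lay on different scales, with an array mean between 5.29 and 5.31 in EupTs65Dn and a median array mean of 6.38 in EupTs66Yah, so each model was compared only with the euploid embryos of its own colony. Each of the 41 probe sets had a mean signal above the median of all probe sets in both colonies. Neuronal content was checked with 12 neuronal markers, all measured. Their summed signal lay between 14.10 and 14.39 (log2) in EupTs65Dn and between 14.11 and 14.35 in Ts65Dn. These markers do not test the forebrain label. The summed signal of 5 midbrain and hindbrain markers had medians of 6.38 in EupTs65Dn, 6.55 in Ts65Dn, 8.86 in EupTs66Yah and 8.97 in Ts66Yah. A single EupTs66Yah array, replicate 16, stood apart. The standard deviation over its probe sets was 1.13, against 2.23 or more on every other array of that group, and its summed neuronal signal was 9.38 against 14.79 to 15.22 on the other 23. It is called the low-spread array. Values of single genes in this colony leave it out unless all arrays are named, as do its litter means and within-litter differences, and the counts of members past each test are given with and without it. Another 5 EupTs66Yah arrays (replicates 9, 14, 17, 21 and 22) had standard deviations of 2.23 to 2.27, below the lowest Ts66Yah array at 2.30. This rule was applied to EupTs66Yah alone. In the other colony, Ts65Dn replicate 21 at 2.42 lay below the lowest EupTs65Dn array at 2.44. On 4 arrays the triplicated chromosome 16 genes lay nearer to the level of the other genotype (1 Ts65Dn, 1 EupTs66Yah and 2 Ts66Yah), and on 17 arrays Y-linked genes went against the labelled sex. Leaving out the former gave 0 members past the threshold in Ts65Dn, against 0.54% of all probe sets. In Ts66Yah without the low-spread array it gave 1 (Homer1), against 1.47%. Leaving out the latter gave 0 in both, against 0.428% and 1.22%.

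In Ts65Dn forebrain, none of the 41 genes passed the test. At a Benjamini-Hochberg adjusted p under 0.1 in limma, 0 of 41 members were called, against 109 of all 22206 probe sets (0.491%). At an unadjusted p under 0.05 the count was also 0 of 41, against 5.79% of all probe sets. The methods' t-test called 0 as well, against 0.518%. The marginal criterion of the study (unadjusted p under 0.01 and a ratio beyond 0.8 or 1.2) was met by 0 of 41, against 1.11% of all probe sets. The group mean was higher in Ts65Dn for 13 members, against 49% of all probe sets, and lower for 28, with a median log2 change of -0.02 against -0.0021 over all probe sets. The 95% confidence intervals give the range of changes that these data allow. All 41 intervals held 0 and lay within a 1.3-fold change in either direction, and 37 lay within 1.2-fold. The lowest bound, a ratio of 0.787, belonged to Grin2a and the highest, 1.18, to Snap25.

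In Ts66Yah forebrain no member passed the test either, but the picture depended on the low-spread array. With all 48 arrays, 0 of 41 members were called, against 0.171% of all probe sets, and 3 (Syn2, Snap25 and Camk2a) had an unadjusted p under 0.05 against 10.2% of all. The marginal criterion was met by 0 of 41, against 2.13% of all. All 41 had a higher mean in Ts66Yah, as did 58.6% of all probe sets, with a median log2 change of 0.17. A filter at the lower quartile of mean signal, which kept every member, left 16654 probe sets. Of these 73.8% were higher, with a median change of 0.090. On the low-spread array, 39 of the 41 members lay below all 23 other EupTs66Yah arrays. The median distance to the mean of the other arrays was -3.66 on the log2 scale and the largest was -6.64, for Grin2b. Bsn lay above all others and Shank3 within their range. This array alone therefore moved the euploid means of nearly all members downward.

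**Figure D1:**
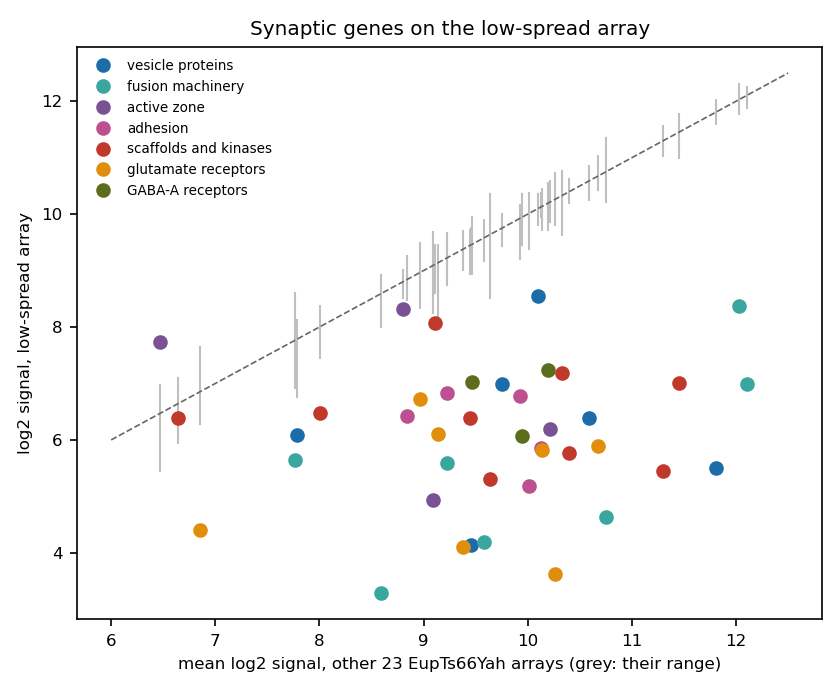
Log2 signal of the 41 synaptic genes on the low-spread array (y axis, 1 point per gene, coloured by class) against their mean on the other 23 EupTs66Yah arrays (x axis, log2). Grey bars give the range over the other 23 arrays and the dashed line equality; 39 points lie below the bars, Bsn lies above its bar and Shank3 within it.

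Without the low-spread array, 0 of 41 members were called by limma (adjusted p under 0.1), against 207 of all probe sets (0.932%). The methods' t-test called 1, Homer1, against 0.905% of all probe sets, and the marginal criterion was met by 1, Snap25, against 1.9%. An unadjusted p under 0.05 was reached by 9 of the 41 members, against 12.1% of all probe sets. Of these, 7 had a higher mean in Ts66Yah (Snap25, Syn1, Dlg4, Vamp2, Rab3a, Camk2a and Syn2), against 7.16% of all probe sets, and 2 a lower mean (Homer1 and Nlgn1), against 4.94%. The median log2 change of the members was 0.02, against 0.0044 over all probe sets and 0.022 over those left by the lower-quartile filter. Across all members 24 means were higher, against 51.6% of all probe sets and 59.1% of those left by the filter, and 17 lower. This balance turned with the scaling: 17 means were higher after centring each array on its median, against 35.2% of all probe sets, and 15 with array spread as a covariate, against 49.4%. Without all 6 narrower arrays 21 means were higher, against 49.1%, and the median change was 0.00041. The interval held 0 for 32 members and lay within 1.3-fold for 40. The exception was Snap25, whose upper bound was a ratio of 1.43. No member separated the groups: the ranges of trisomic and euploid embryos overlapped for all 41 in both colonies, as they did for every probe set.

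**Figure D2:**
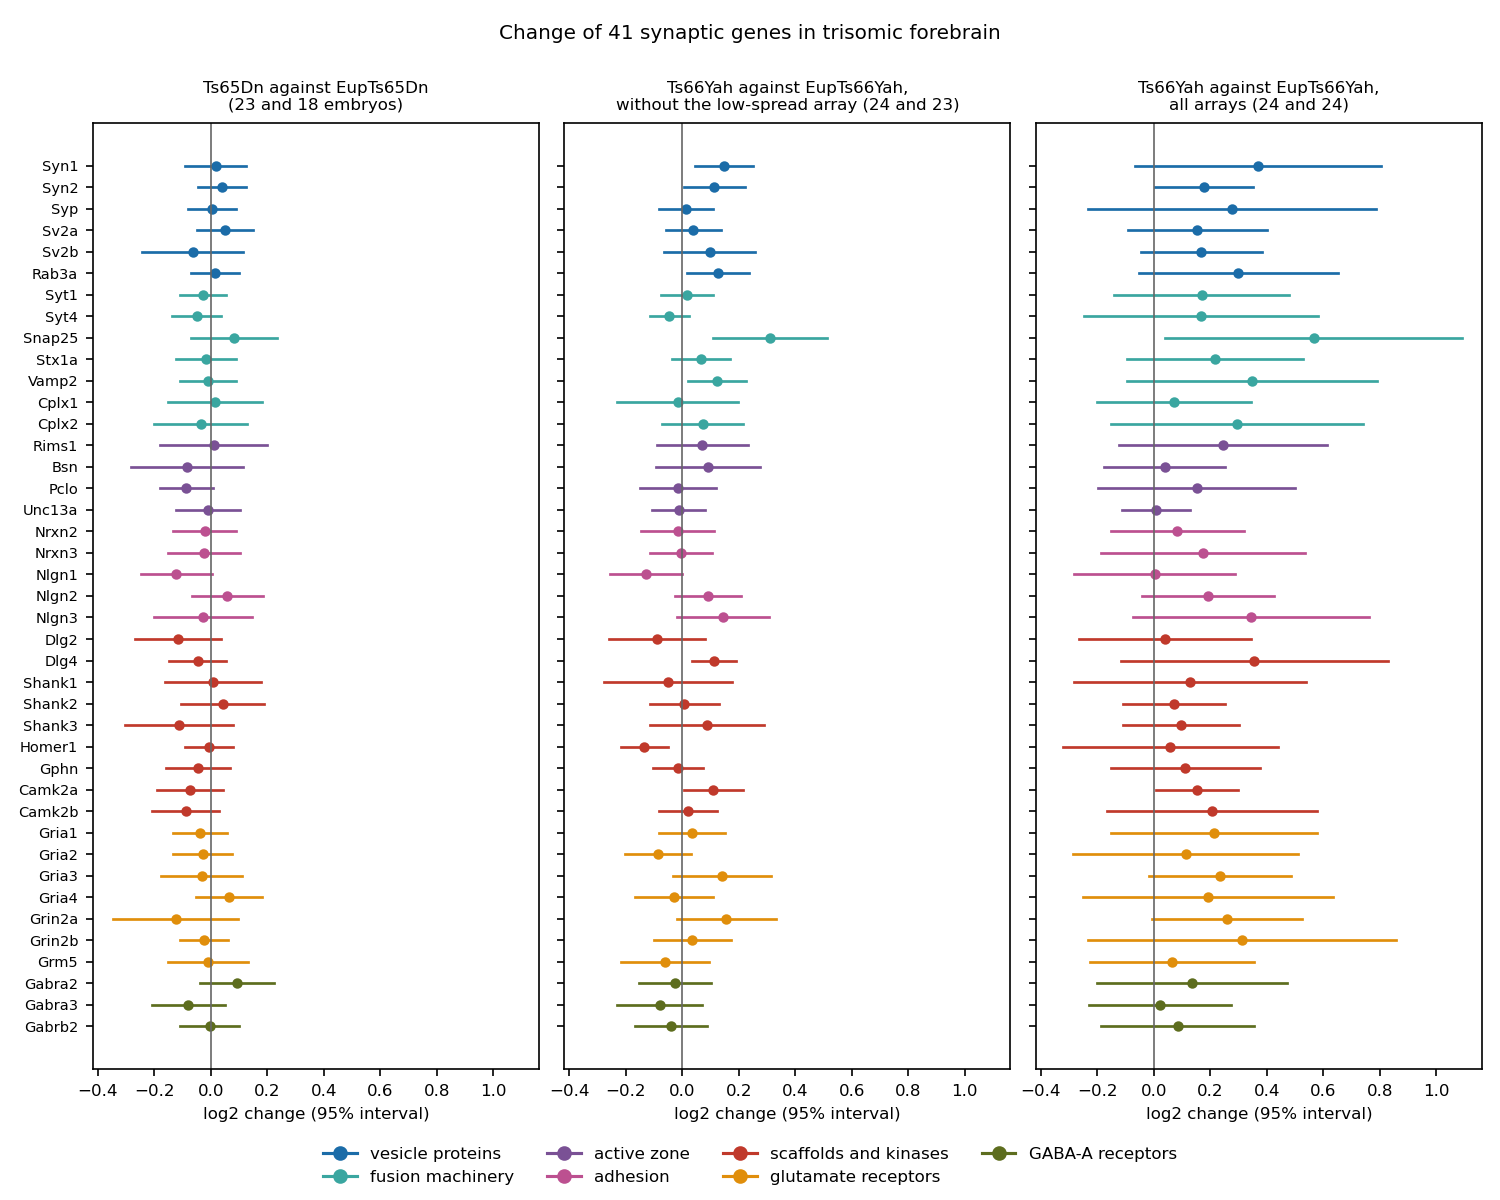
Log2 change of each of the 41 synaptic genes between trisomic and euploid embryos (x axis; points are differences of group means, bars 95% confidence intervals from limma), coloured by class. In Ts65Dn all bars cross 0; in Ts66Yah without the low-spread array 9 bars do not reach 0, and with all arrays every point lies at or right of 0 and the bars widen.

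Among the synaptic vesicle proteins, the synapsins and Rab3a had the smallest p-values in Ts66Yah without the low-spread array, and none passed the adjusted threshold. Syn1, which tethers vesicles to the cytoskeleton, measured 9.18 to 9.76 (median 9.50) in 23 EupTs66Yah embryos and 9.10 to 10.04 (median 9.62) in Ts66Yah. Its log2 change was 0.15 (SE 0.051, p = 0.00563, adjusted p = 0.206 in limma), and 18 of 24 trisomic embryos lay above the euploid median. Syn1 in the Ts65Dn colony ran from 8.59 to 9.01 (median 8.89) in euploid and from 8.40 to 9.15 (median 8.88) in trisomic embryos, a log2 change of 0.017 (SE 0.054). The groups of both colonies overlapped over most of their ranges. Syn2, its paralogue, gave 0.11 (SE 0.054, adjusted p = 0.398) in Ts66Yah and 0.040 (SE 0.041) in Ts65Dn. Rab3a, the GTPase carried by vesicles on their way to docking, gave 0.13 (SE 0.054, adjusted p = 0.338) in Ts66Yah and 0.016 (SE 0.042) in Ts65Dn. With all arrays the changes of Syn1, Syn2 and Rab3a in Ts66Yah were 0.37 (SE 0.22), 0.18 (SE 0.087) and 0.30 (SE 0.18).

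Other proteins of the vesicle membrane had smaller or less certain differences. Syp, synaptophysin, the abundant membrane protein used as a marker of terminals, ranged from 11.59 to 12.02 (median 11.81) in EupTs66Yah and from 11.39 to 12.14 (median 11.83) in Ts66Yah. The euploid range lay inside the trisomic one, with a log2 change of 0.015 and a 95% interval from -0.08 to 0.11. The Syp medians were 10.92 and 10.91 in EupTs65Dn and Ts65Dn, and the interval ran from -0.08 to 0.09. Sv2a and Sv2b, transporter-like glycoproteins of the vesicle, had differences of 0.040 (SE 0.049) and 0.098 (SE 0.080) in Ts66Yah and of 0.051 (SE 0.050) and -0.064 (SE 0.088) in Ts65Dn. With all arrays Syp gave 0.28 (SE 0.25) in Ts66Yah, Sv2a 0.15 (SE 0.12) and Sv2b 0.17 (SE 0.11). All 6 vesicle genes had a higher mean in Ts66Yah without the low-spread array, against 51.6% of all probe sets. After centring 4 of 6 were higher, against 35.2%, and with array spread as a covariate 4 of 6, against 49.4%. Sv2a turned in both settings, with either Syp or Sv2b. In Ts65Dn 5 of 6 were higher, against 49%. In each model 0 of 6 passed the test, against 0.491% of all probe sets in Ts65Dn and 0.932% in Ts66Yah.

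Of the fusion machinery, Snap25 had the largest difference of any member. It encodes the SNARE protein of the presynaptic plasma membrane and measured 10.22 to 11.35 (median 10.75) in 23 EupTs66Yah embryos and 9.80 to 11.58 (median 11.16) in 24 Ts66Yah embryos. The ranges overlapped throughout, yet 21 of 24 trisomic embryos lay above the euploid median. The log2 change was 0.31 (SE 0.10, 95% interval 0.11 to 0.51), a ratio of 1.24, with p = 0.00321 and adjusted p = 0.166 in limma. Litter was not in this fit, and within litters the difference ran from -0.51 to 0.61, positive in 4 of 6. The spread of Snap25 was also wide, with a standard deviation of 0.30 in EupTs66Yah and 0.39 in Ts66Yah. With the low-spread array, where Snap25 read 4.63, the change became 0.57 (SE 0.26, adjusted p = 0.465). Snap25 ranged from 9.34 to 10.08 (median 9.77) in EupTs65Dn and from 9.19 to 10.26 (median 9.86) in Ts65Dn, with a change of 0.083 (SE 0.076).

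Vamp2, the SNARE protein of the vesicle, measured 9.17 to 9.90 (median 9.60) in EupTs66Yah and 9.46 to 9.99 (median 9.68) in Ts66Yah. Again 21 of 24 trisomic embryos were above the euploid median, with a log2 change of 0.12 (SE 0.051, adjusted p = 0.313). In Ts65Dn it differed by -0.0078 (SE 0.049), and in Ts66Yah with all arrays by 0.35 (SE 0.22). Syt1, the calcium sensor for fast release, had narrow intervals around 0 in both colonies. Its medians were 12.01 and 12.04 in EupTs66Yah and Ts66Yah, with an interval from -0.07 to 0.11, and 10.94 and 10.90 in EupTs65Dn and Ts65Dn, with an interval from -0.11 to 0.05. Its change in Ts66Yah was 0.17 (SE 0.15) with all arrays, and without the low-spread array its sign turned with the scaling, from 0.018 to -0.026 after centring. Syt4, a synaptotagmin that binds calcium weakly, gave -0.046 (SE 0.035) in Ts66Yah and -0.050 (SE 0.043) in Ts65Dn. Stx1a, the syntaxin that pairs with Snap25, and the complexins Cplx1 and Cplx2, which clamp and promote fusion, gave changes of 0.066, -0.016 and 0.073 in Ts66Yah and of -0.016, 0.015 and -0.035 in Ts65Dn. The SNARE partners thus had positive differences of unequal size in Ts66Yah, and none passed the test.

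The active zone genes, which organize the release site, gave differences that did not pass the test. Pclo, the large scaffold Piccolo, measured 8.34 to 8.94 (median 8.70) in EupTs65Dn and 8.32 to 8.83 (median 8.61) in Ts65Dn. Only 6 of 23 trisomic embryos lay above the euploid median, with a log2 change of -0.085 (SE 0.047, p = 0.0764, adjusted p = 0.894). In Ts66Yah the change of Pclo was -0.015 (SE 0.066), and 0.15 (SE 0.17) with all arrays. Bsn, Bassoon, the partner scaffold of Piccolo, gave -0.083 (SE 0.098) in Ts65Dn and 0.092 (SE 0.091) in Ts66Yah. Rims1, which links vesicles to calcium channels, gave 0.011 (SE 0.094) and 0.072 (SE 0.080), and Unc13a, the Munc13 priming factor, -0.0096 (SE 0.056) and -0.013 (SE 0.047). Intervals were wide for Bsn and Rims1 and narrower for Unc13a, and with array spread as a covariate Rims1 gave -0.027 in Ts66Yah.

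Among adhesion molecules, Nlgn1 had a lower mean in both models. This neuroligin of glutamatergic synapses measured 8.10 to 8.71 (median 8.49) in EupTs65Dn and 7.81 to 8.65 (median 8.36) in Ts65Dn, with 6 of 23 trisomic embryos above the euploid median. The log2 change was -0.12 (SE 0.062, p = 0.0578, adjusted p = 0.878), the smallest p of all members in that colony. In the other colony Nlgn1 measured 9.21 to 10.15 (median 9.92) in EupTs66Yah and 9.35 to 10.17 (median 9.87) in Ts66Yah. There 7 of 24 trisomic embryos lay above the euploid median, with a change of -0.13 (SE 0.063, p = 0.0484, adjusted p = 0.410). Neither value passed the adjusted threshold. With the low-spread array the change in Ts66Yah was 0.0033 (SE 0.14).

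The other neuroligins had positive differences in Ts66Yah that did not pass the test. Nlgn2, which sits at inhibitory synapses, gave 0.092 (SE 0.058), and Nlgn3, found at both kinds, gave 0.14 (SE 0.082, adjusted p = 0.481). In Ts65Dn they gave 0.059 (SE 0.062) and -0.028 (SE 0.085). For the neurexins, their presynaptic partners, the intervals were centred near 0. Nrxn3 had medians of 10.08 and 10.13 in EupTs66Yah and Ts66Yah, with an interval from -0.11 to 0.11, and 8.59 and 8.61 in the Ts65Dn colony, with an interval from -0.15 to 0.10. Nrxn2 gave -0.016 (SE 0.065) in Ts66Yah and -0.022 (SE 0.055) in Ts65Dn. All arrays gave 0.19 (SE 0.12) for Nlgn2, 0.35 (SE 0.21) for Nlgn3 and 0.17 (SE 0.18) for Nrxn3 in Ts66Yah.

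Of the postsynaptic scaffolds, Homer1 came nearest to the threshold. Homer1 joins metabotropic glutamate receptors to Shank proteins, and measured 10.20 to 10.62 (median 10.39) in EupTs66Yah and 10.04 to 10.49 (median 10.27) in Ts66Yah. Only 6 of 24 trisomic embryos lay above the euploid median. The log2 change was -0.13 (SE 0.041, 95% interval -0.22 to -0.05), a ratio of 0.912, with p = 0.00219 and adjusted p = 0.143 in limma. With all arrays it was 0.059 (SE 0.19). Homer1 in the Ts65Dn colony ranged from 9.09 to 9.46 (median 9.27) in euploid and from 9.05 to 9.55 (median 9.24) in trisomic embryos, with an interval from -0.09 to 0.08.

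Dlg4, which encodes PSD-95, the core scaffold of glutamatergic synapses, measured 11.03 to 11.56 (median 11.30) in EupTs66Yah and 11.20 to 11.66 (median 11.42) in Ts66Yah. Of the trisomic embryos, 20 of 24 lay above the euploid median, with a log2 change of 0.11 (SE 0.039, p = 0.00641, adjusted p = 0.214), and of 0.36 (SE 0.24) with all arrays. In Ts65Dn the medians were 10.42 and 10.38, and the change was -0.046 (SE 0.050). Dlg2, its relative PSD-93, had negative differences in both models, -0.12 (SE 0.075) in Ts65Dn and -0.090 (SE 0.084) in Ts66Yah. Camk2a, the alpha subunit of the calcium- and calmodulin-dependent kinase of the postsynaptic density, measured 8.61 to 9.45 (median 9.13) in EupTs66Yah and 8.90 to 9.49 (median 9.22) in Ts66Yah, a change of 0.11 (SE 0.051, adjusted p = 0.382), and 0.15 (SE 0.073) with all arrays. In Ts65Dn it gave -0.074 (SE 0.058), and the beta subunit Camk2b gave -0.089 (SE 0.059) in Ts65Dn and 0.021 (SE 0.051) in Ts66Yah.

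The Shank proteins, the lower layer of the postsynaptic scaffold, had some of the widest intervals. Shank3 ranged from 5.95 to 7.09 (median 6.69) in EupTs66Yah and from 5.04 to 7.23 (median 6.76) in Ts66Yah, with an interval from -0.11 to 0.29, or -0.11 to 0.30 with all arrays. In the Ts65Dn colony it ranged from 5.11 to 6.11 in euploid and from 4.66 to 6.11 in trisomic embryos, with an interval from -0.30 to 0.08. Shank1 and Shank2 gave -0.050 (SE 0.11) and 0.0074 (SE 0.061) in Ts66Yah and 0.0082 (SE 0.083) and 0.042 (SE 0.072) in Ts65Dn. Gphn, gephyrin, the scaffold of inhibitory synapses, gave -0.015 in Ts66Yah (interval -0.10 to 0.07) and -0.046 in Ts65Dn (interval -0.16 to 0.07).

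**Figure D3:**
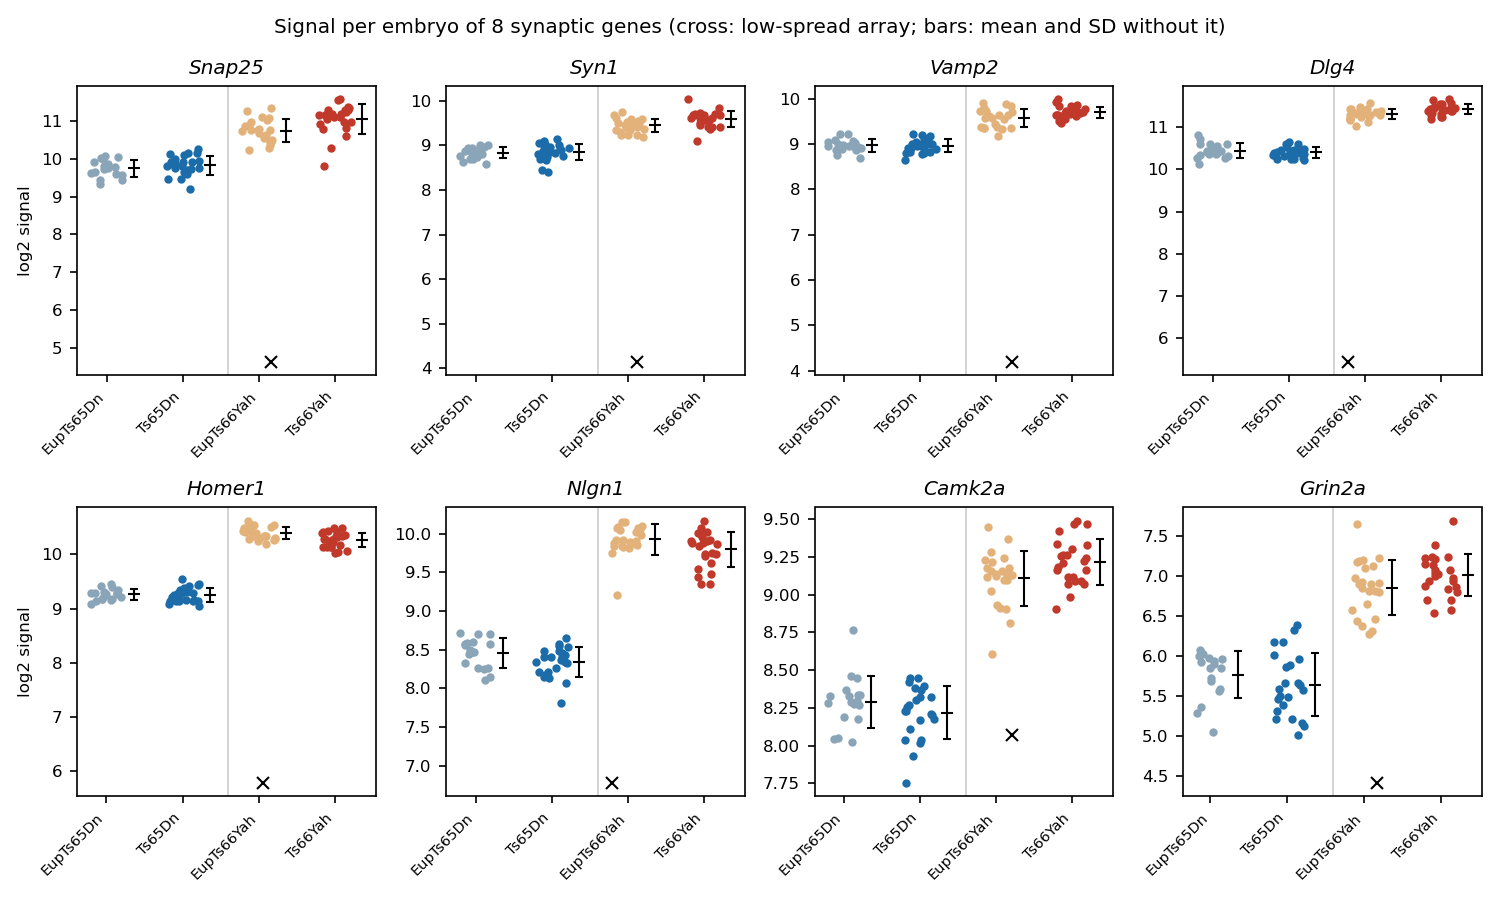
Log2 signal of 8 synaptic genes in every embryo (y axis; 1 point per embryo, jittered sideways), in the 4 genotype groups, with mean and SD drawn without the low-spread array, which is marked by a cross. Trisomic and euploid points overlap in every panel, and the colonies lie on different scales. The cross lies below all other EupTs66Yah points in every panel, nearest to them for Camk2a.

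Glutamate receptor subunits showed no call in either model. Grin2a, the NMDA receptor subunit that becomes prominent after birth, measured 5.05 to 6.07 (median 5.88) in EupTs65Dn and 5.01 to 6.39 (median 5.59) in Ts65Dn, with a log2 change of -0.12 (SE 0.11, adjusted p = 0.960). In the other colony it measured 6.28 to 7.65 (median 6.90) in EupTs66Yah and 6.54 to 7.69 (median 7.02) in Ts66Yah, with a change of 0.16 (SE 0.088, adjusted p = 0.479), or 0.26 (SE 0.13) with all arrays. The signs were opposite, and the groups overlapped in both colonies. Grin2b, the NMDA receptor subunit that predominates before birth, had intervals from -0.11 to 0.06 in Ts65Dn and from -0.10 to 0.17 in Ts66Yah, or -0.23 to 0.86 with all arrays. It also had the largest drop on the low-spread array, where it read 3.62 against 9.81 to 10.72 on the other arrays.

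AMPA receptor subunits, which carry fast excitatory current, followed no common direction. In Ts66Yah Gria2, the subunit that limits calcium entry, ranged from 10.06 to 10.99 against 10.42 to 11.02 in euploid embryos, with a change of -0.087 (SE 0.058). Gria1, Gria3 and Gria4 gave 0.035 (SE 0.058), 0.14 (SE 0.086) and -0.028 (SE 0.069) there. With all arrays Gria1 to Gria4 gave 0.21, 0.11, 0.23 and 0.19, and with array spread as a covariate and without the low-spread array Gria1 and Gria3 turned to -0.045 and -0.018. In Ts65Dn the changes of Gria1 to Gria4 were -0.038, -0.027, -0.032 and 0.065, each under 1.2 times its standard error. Grm5, the metabotropic receptor tied to Homer proteins, gave -0.061 (SE 0.077) in Ts66Yah and -0.0093 (SE 0.070) in Ts65Dn.

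All 3 GABA-A receptor subunits, parts of the chloride channel opened by GABA, had a lower mean in Ts66Yah without the low-spread array and a higher mean with it. Gabra2 measured 9.44 to 10.36 (median 9.97) in EupTs66Yah and 9.34 to 10.33 (median 9.92) in Ts66Yah, a change of -0.026 (SE 0.064), or 0.14 (SE 0.17) with all arrays. In the Ts65Dn colony it ranged from 8.28 to 9.27 (median 9.05) in euploid and from 8.79 to 9.22 (median 9.08) in trisomic embryos, with a change of 0.093 (SE 0.064, adjusted p = 0.926). Gabra3 gave -0.079 in both models (SE 0.065 in Ts65Dn and 0.074 in Ts66Yah), and Gabrb2 gave -0.0039 in Ts65Dn and -0.038 in Ts66Yah. These are whole-forebrain samples, in which fewer cells of a type and less RNA per cell cannot be told apart.

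Whether the models differed was tested as the difference of their effects, Ts65Dn minus Ts66Yah, in 1 fit of all 4 groups. Without the low-spread array, limma called 0 of 41 members, against 33 of all probe sets (0.149%), and with it 0 of 41, against 0.00901%. An unadjusted p under 0.05 was reached by 4 members without that array, against 7.14% of all probe sets, and by 2 with it, against 7.05%. The 4 were Dlg4, with a difference of -0.16 (SE 0.060, adjusted p = 0.528), Camk2a with -0.18 (SE 0.076, adjusted p = 0.577), Homer1 with 0.13 (SE 0.057, adjusted p = 0.641) and Grin2a with -0.28 (SE 0.14, adjusted p = 0.692). For Snap25 the interval of the difference ran from -0.49 to 0.03, so the positive value in Ts66Yah was not shown to be particular to that model. Nlgn1 gave 0.0067 (interval -0.17 to 0.18).

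The comparison within litters showed how evenly these differences were shared. Some litter differences rest on few arrays: WT11 had 1 euploid embryo, and WT13 and TS42 had 2 each. In the Ts66Yah colony without the low-spread array, Dlg4 had a higher trisomic mean in all 6 litters, with differences from 0.01 to 0.24. Grin2a did so too, with differences from 0.01 to 0.36. Those were 2 of 41 members, while 2.08% of all probe sets were higher in every litter, and in the Ts65Dn colony it held for 0 of 41, against 1.92%. With the low-spread array, an embryo of litter WT18, it was also Dlg4 and Grin2a that were higher in all 6 litters, against 2.88% of all probe sets. Snap25 was higher in 4 of 6 litters and its differences ran from -0.51 in litter WT19 to 0.61 in litter WT15. In WT19 the chromosome 16 genes of Ts66Yah replicate 24 and EupTs66Yah replicate 24 lay nearer the other genotype. Homer1 was lower in 4 of 6 litters (-0.31 to 0.06; 3 of 6 with the low-spread array), Syn1 higher in 4 of 6 (-0.20 to 0.38) and Nlgn1 lower in 5 of 6 (-0.38 to 0.17). Vamp2 was higher in 5 of 6 litters (-0.04 to 0.28). Nlgn1 and Pclo were lower in 4 and 5 of 6 litters of the Ts65Dn colony. With litter as a block, 0 members were called in any genotype comparison.

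**Figure D4:**
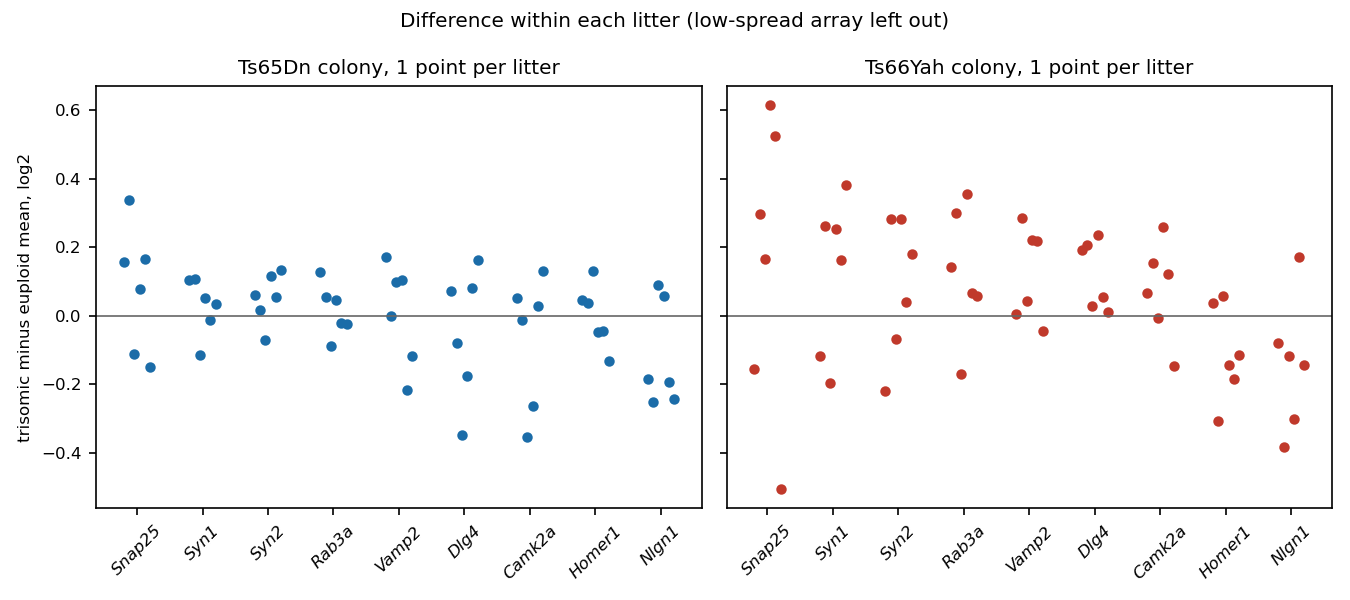
Difference between the trisomic and the euploid mean within each litter (y axis, log2; 1 point per litter, 6 litters per colony, low-spread array left out) for 9 synaptic genes. Litters differ in size, and WT11 has 1 euploid embryo. In the Ts66Yah colony all 6 points of Dlg4 lie above 0, while those of Snap25 spread from -0.51 to 0.61; in the Ts65Dn colony every gene has litters on both sides of 0.

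The litter means of several members lay apart, but no member passed the test between litters. By the F test with genotype in the model in limma, 0 of 41 members passed an adjusted p under 0.1 in the Ts65Dn colony, against 84 of all probe sets (0.378%), and 0 of 41 in the Ts66Yah colony, against 20 (0.0901%). At an unadjusted p under 0.05 the counts were 10 of 41, against 10.7% of all probe sets, and 6 of 41, against 11.5%. With the low-spread array 0 of 41 reached an unadjusted p under 0.05 in the Ts66Yah colony, against 3.87%, and 0 probe sets passed the adjusted threshold. Nlgn3 led in the Ts65Dn colony (F = 5.49, adjusted p = 0.119): its litter means ran from 8.43 in TS137 to 8.99 in TS113. The 7 embryos of TS113 measured 8.67 to 9.11 and the 6 of TS137 measured 8.19 to 8.57. Both litters were picked as highest and lowest from the same values, so the gap between them is no test. Dlg2, Nrxn3, Grm5 and Shank1 came next, with litter means spanning 0.46, 0.38, 0.36 and 0.42 on the log2 scale.

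Snap25 led in the Ts66Yah colony (F = 5.39, adjusted p = 0.142), with litter means from 10.57 in WT19 to 11.27 in WT13. The 8 embryos of WT13 measured 11.02 to 11.56 and the 9 of WT19 measured 9.80 to 10.99. These litters were again picked as highest and lowest from the same values. With the low-spread array F was 1.54 (adjusted p = 0.983). By label WT13 held 6 trisomic and 2 euploid embryos and WT19 held 3 trisomic and 6 euploid. The litters that were high and low in Snap25 were thus also unequal in labelled genotype. Chromosome 16 genes lay nearer the other genotype in Ts66Yah replicate 13 of WT13 and in Ts66Yah replicate 24 and EupTs66Yah replicate 24 of WT19. Cplx2 (F = 4.81, adjusted p = 0.166) ordered these litters in the same way, from 8.45 in WT19 to 8.86 in WT13. Rims1, Shank3 and Gria3 spanned 0.40, 0.47 and 0.47. Over all members the span of litter means had a median of 0.20 in the Ts65Dn colony, from 0.052 for Rab3a to 0.56 for Nlgn3, and of 0.22 in the Ts66Yah colony, from 0.083 for Sv2a to 0.69 for Snap25.

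**Figure D5:**
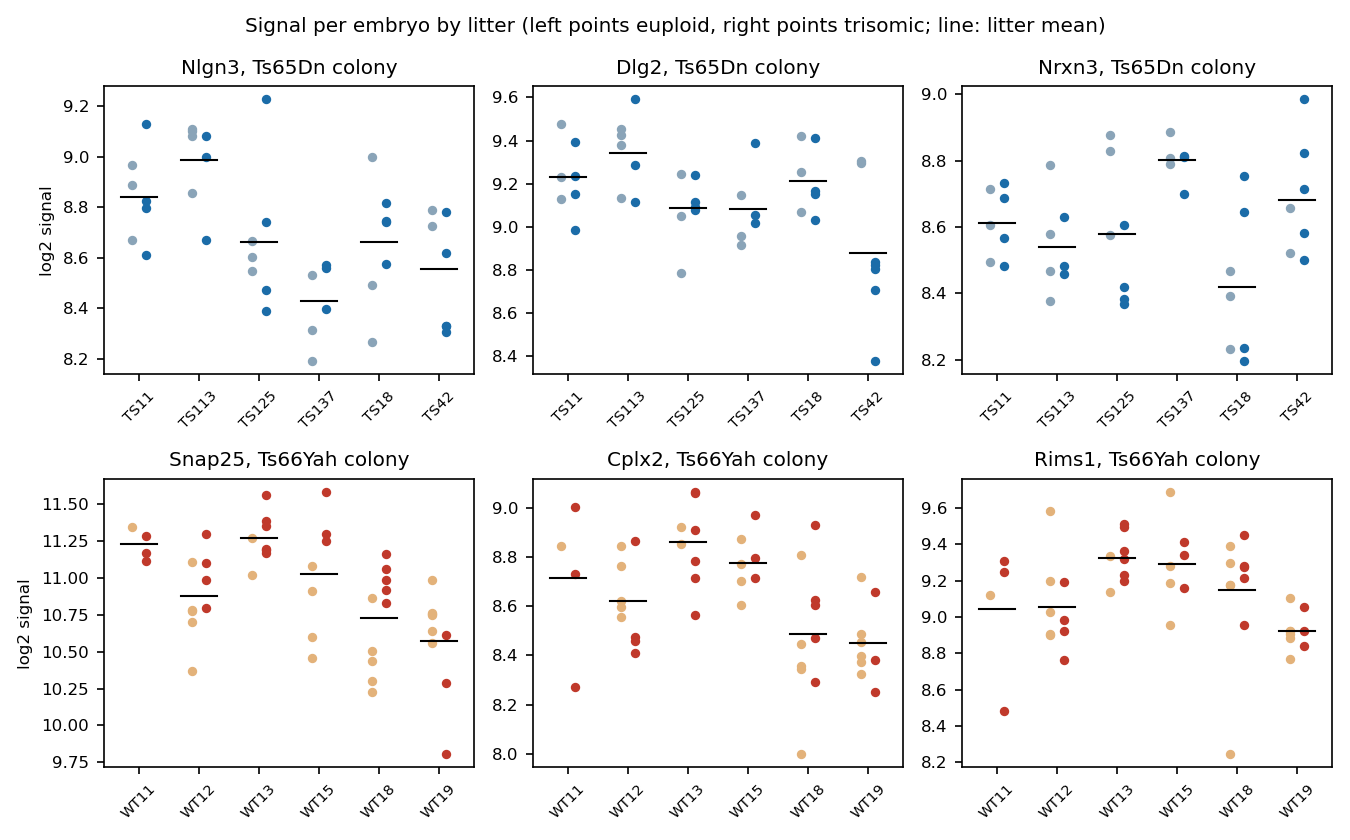
Log2 signal per embryo (y axis) by litter (x axis, named by dam) for the 3 members with the smallest F-test p in each colony; left points are euploid, right points trisomic, lines the litter means, and the low-spread array is left out. Nlgn3 is high in TS113 and low in TS137, and Snap25 and Cplx2 are high in WT13 and low in WT19.

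No member passed the test between the sexes. Between females and males, with genotype in the model, limma called 0 of 41 in the Ts65Dn colony, against 0.0675% of all probe sets, and 0 of 41 in the Ts66Yah colony without the low-spread array, against 0.401%. At an unadjusted p under 0.05 the counts were 2 and 0 of 41, against 5.76% and 4.97%. The low-spread array is labelled female, and the check of Y-linked genes placed it with the males. That check used their absolute signal, so with this array's narrow spread it cannot decide the sex. With the low-spread array 0 of 41 were called in the Ts66Yah colony (0.185% of all probe sets) and 0 had an unadjusted p under 0.05 (4.66%). The median difference over members was then -0.15. The 2 were Shank1, with a female minus male difference of -0.20 (SE 0.078, adjusted p = 0.733), and Dlg4 with -0.10 (SE 0.048, adjusted p = 0.841). The X-linked members lay between -0.028 for Syn1 and 0.093 for Gabra3 in the Ts65Dn colony. These values follow the labelled sex, which Y-linked genes went against on 17 arrays, the low-spread array among them.

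Further synaptic genes, 92 in 3 lists of presynaptic, adhesion and scaffold, and receptor genes, were measured for 80. Limma called 0 of 80 in Ts65Dn, against 0.491% of all probe sets. In Ts66Yah it called 0 of 80 with all arrays, against 0.171%, and 0 of 80 without the low-spread array, against 0.932%. An unadjusted p under 0.05 was reached by 6 of 80 in Ts65Dn (1 higher, 5 lower), against 5.79% of all probe sets, and by 7 in Ts66Yah with all arrays, against 10.2%. Without the low-spread array it was reached by 11, against 12.1%, all of them higher in the trisomic embryos, against 7.16% for that direction. The smallest adjusted p among the 80, 0.166, was that of Vamp1, the paralogue of Vamp2, with a log2 change of 0.39 (SE 0.12) in Ts66Yah without the low-spread array. Of these genes, 37 of 80 had a higher mean in Ts65Dn, against 49% of all probe sets, and 59 of 80 in Ts66Yah without that array, against 51.6%, with median changes of -0.0062 and 0.048. With all arrays 76 of 80 had a higher mean in Ts66Yah, against 58.6%, with a median of 0.17.

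Markers of cell types were measured beside the synaptic genes. Of the 12 neuronal markers, 1 had a higher mean in Ts65Dn and 11 a lower one (median change -0.016), where 49% of all probe sets were higher. In Ts66Yah 11 were higher without the low-spread array (median 0.081), against 51.6%, and 12 with all arrays (median 0.32), against 58.6%. None was called by limma in Ts65Dn, against 0.491% of all probe sets. None was called in Ts66Yah either, against 0.932% without that array and 0.171% with it. An unadjusted p under 0.05 was reached by 2 in Ts65Dn, against 5.79%. In Ts66Yah it was reached by 2 without that array, against 12.1%, and by 0 with it, against 10.2%. The summed neuronal signal had medians of 15.07 in EupTs66Yah and 15.15 in Ts66Yah, with ranges of 14.79 to 15.22 and 14.91 to 15.25. Without that array 1 of 4 measured oligodendrocyte lineage markers (3 higher, 1 lower) and 1 of 10 progenitor markers (6 higher, 4 lower) were called in Ts66Yah by limma, against 0.932% of all probe sets. They were Mbp, a myelin protein gene of the oligodendrocyte lineage, which rose by 0.62 (SE 0.16, adjusted p = 0.0503), and Vim, the intermediate filament gene of progenitors, which rose by 0.19 (SE 0.051, adjusted p = 0.0853). With all arrays Mbp rose by 0.69 (adjusted p = 0.0929), and Vim gave 0.42 (adjusted p = 0.509). The summed oligodendrocyte lineage signal, from 4 of 6 listed genes, ranged from 7.93 to 9.02 in EupTs66Yah and from 7.90 to 9.17 in Ts66Yah, and the summed progenitor signal from 13.37 to 13.98 and from 13.41 to 13.99. In Ts65Dn 0 of all listed markers were called, against 0.491% of all probe sets. The markers, too, were not fitted after centring or with array spread as a covariate. Their part in the differences of the synaptic genes was not tested.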

How the data were processed

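Per the submitters' processing notes the deposited values are log2 signals made by RMA, whose version and settings the sources used here do not state. All 22206 probe sets were kept, 19572 with 1 gene symbol. Samples were grouped by labelled genotype, and litters by the labelled dam. Each comparison was fitted over all probe sets with limma 3.58.1 in R 4.3.3 (lmFit and eBayes, two-sided, Benjamini-Hochberg adjustment, threshold 10%), following the unpaired comparisons and false discovery rate of the series. Litters were tested by an F test and sex by its coefficient, both with genotype in the model. The number of arrays limits the precision. The members, the lists, the tests and the alternatives were chosen with earlier results of these data known. Full values were given for the member of each class with the smallest p or the largest change, and for a fixed set of well-known genes.

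Embryos of a litter share a dam. After subtracting group means, the median correlation between arrays was 0.040 within and -0.038 between litters of the Ts65Dn colony and 0.042 and -0.032 in the Ts66Yah colony, and litter as a replicate block was an alternative. Other alternatives were sex or array spread as covariates, the methods' t-test, the study's marginal criterion, a threshold of 0.05, a filter at the lower quartile, quantile normalization, centring, array weights, and leaving out doubtful arrays or each litter. A value was counted as reversed where its sign changed and it was called, or larger than its standard error in both settings. Scripts were tested on simulated data. The series text counts 25 Ts66Yah arrays; 24 are labelled so and were used.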

Additional observations from a re-analysis of the deposited data

How the results depend on the processing

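In Ts65Dn, 0 members were called under every alternative tried, litter as a replicate block included, and the block called 0 members in Ts66Yah too, so it changed no call. The difference of effects called 0 members under every alternative. For Ts66Yah with all arrays, 28 of 41 members changed sign with array spread as a covariate. This covariate called 1.26% of all probe sets, against 0.171% without it. Among them were 2 members, Nlgn1 at -0.20 and Homer1 at -0.23. Among the genes given in full, the sign changed with a call, or with a value beyond its standard error in both settings, for these and for Syp (-0.11), Syt1 (-0.065) and Grin2b (-0.11). In the difference of effects with all arrays the covariate changed the sign of 30 of 41 members, by that measure for Syt1 (0.056) and Grin2b (0.11). The median change of the members with all arrays, 0.17, was -0.062 with that covariate and -0.00085 without litter WT18, which holds the low-spread array. Without that array the count for Ts66Yah was 1 under the methods' t-test (Homer1), against 0.905% of all probe sets. It was 1 under the marginal criterion (Snap25), against 1.9%, and 1 after centring on the array median (Homer1), against 0.95%. Without the arrays whose chromosome 16 genes lay nearer the other genotype it was 1 (Homer1), against 1.47%. Leaving out a litter gave 0 to 2. Without WT13, Syn1 (0.23) and Homer1 (-0.17) were called, against 1.38% of all probe sets, and without WT19, Snap25 (0.43), against 0.73%. Between litters, Nlgn3 was called in the Ts65Dn colony (1 member) with a filter at the lower quartile, against 1.07% of the probe sets tested. It was also called without litter TS125, against 0.68%, and leaving out a litter gave 0 to 1. In the Ts66Yah colony Snap25 was called (1 member) with that filter, against 0.859%, and with array spread as a covariate, against 0.279%. It was called without litter WT15 too, against 0.257%, and leaving out a litter again gave 0 to 1. The filter tests fewer probe sets, but whether this gave the calls under it was not tested. The cause of the other changes was not tested either. For Ts66Yah without the low-spread array, 0 members were called with the other alternatives. The tests between litters and sexes of the Ts66Yah colony with the low-spread array were added after seeing the data: both called 0 members, and the median difference between the sexes was -0.15 with it.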
